A study of Mus musculus with 12 samples.

Results

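Normal maturation of the mouse retina between postnatal day 1 (P1) and postnatal day 12 (P12) was read from the 3 control arrays of each age, which were chosen by their titles and make up 6 of the 12 arrays of the series. The control mice carried the otx2 flox/flox alleles without the Crx-Cre transgene, so every control retina held the floxed allele and intact *Otx2*. The remaining 6 arrays came from Otx2 CKO retinas (Otx2 flox/flox; Crx-Cre+) of the same ages, in which Cre driven by the *Crx* promoter deletes *Otx2* in developing photoreceptors. They entered 1 comparison here, that of the age difference between the genotypes. Total RNA of whole retina was hybridized to the Affymetrix Mouse Genome 430 2.0 array, on which a probe set is a group of short probes that reads 1 transcript. The free-text descriptions of some samples, among them control array 3 of each age, named the opposite genotype, whereas their titles, source names and genotype fields gave 1 genotype throughout and were followed. The sources used here did not say whether an array read 1 animal or a pool of several.

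In the newborn mouse retina the last progenitors are still dividing and are producing mostly rods, bipolar cells and Müller glia, while ganglion, amacrine and horizontal cells and cones have largely been born. Over the following days division ends, the postmitotic photoreceptors grow outer segments, stacks of membrane loaded with the proteins that turn light into an electrical signal, and the synapses of the plexiform layers form. Around the second week the eyes open and the retina begins to respond to patterned light. The question put to the arrays was which gene groups were higher or lower at the later age, and by how much.

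Before any scaling, the trimmed mean of all probe sets was 28.5 to 30.1 at P1 and 96.4 to 111 at P12, so the deposited signals of the ages did not share a scale. All values below come from signals brought to a common distribution by quantile normalization over the 6 arrays, and each rise or fall is relative to that distribution. Correlations of log2 signals were 0.979 to 0.981 among the P1 arrays, 0.890 to 0.953 among the P12 arrays and 0.845 to 0.895 between the ages. The median SD of a probe set on the log2 scale was 0.145 at P1 and 0.377 at P12. *Rp1*, which encodes an axoneme protein of the outer segment, read 2228 on P12 array 1, 126 on array 2 and 819 on array 3. The spread was not confined to single genes: over the tested probe sets, deviations of P12 arrays 1 and 2 from the P12 mean correlated at -0.88. Deviations from a mean of 3 arrays lean negative by construction, and the cause of the spread was not tested. The values of each P12 array are given below for several such dispersed genes. The signal ratio of the 3′ to the 5′ actin control probes, a sign of RNA integrity, was 1.30 to 1.57 over the 6 arrays and was lowest on P12 array 2. The same ratio of the *Gapdh* control probes was 0.671 to 0.832 and was highest on P12 array 2. The part of RNA integrity in the spread was not tested.

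Of 16756 probe sets with a mean signal of at least 50 at either age, 2883 (17.2%) rose and 2940 (17.5%) fell from P1 to P12 at a limma adjusted p under 0.05. With 1 probe set per gene, 1719 of 9273 genes (18.5%) rose and 1547 (16.7%) fell, and the median gene differed by -0.03 on the log2 scale. The 3 arrays of one age all lay above the 3 of the other for 2445 genes in the upward and 2386 in the downward direction. The counts moved by a large factor when 1 P1 array was left out: 1806 probe sets fell without P1 array 1, 1769 rose and 1645 fell without P1 array 2, and 1821 rose and 1743 fell without P1 array 3. The direction of the bulk of genes rested on the scaling: 49.5% of the called probe sets had risen here, against 98.3% with the signals as deposited, 36.6% with scaling to the median and 88.7% with scaling to the spiked-in control transcripts. Counts of list members under those scalings, given below, share this shift of the bulk. Differences are given as log2 of normalized signal + 16, which understates the change of dim genes, and 325 genes were higher and 251 lower by more than 2 on that scale. Of the genes that rose, 729 had a mean signal under 50 at P1, and of those that fell, 575 had a mean under 50 at P12. Such genes were tested through 1 age alone, so the signal limit fixed the direction of their mean signals. They lean the counts and medians of lists outward. On the log2 scale, where the offset of 16 bears on the order of genes dim at one age, the largest rise was that of *Gnat1* (7.78) and the largest fall that of *Top2a* (-5.49). In whole-tissue RNA, fewer cells of a type and less RNA per cell cannot be told apart.

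Gene lists of 38 kinds described the change, with 745 of 811 genes having a named probe set and 572 reaching the signal limit. More members rose than fell in 23 lists and more fell than rose in 10. The counts of each list stand beside the 18.5% of all genes that rose and the 16.7% that fell. Photoreceptor, bipolar cell and synaptic vesicle genes were among the risers, and cell cycle and progenitor genes among the fallers.

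**Figure D1:**
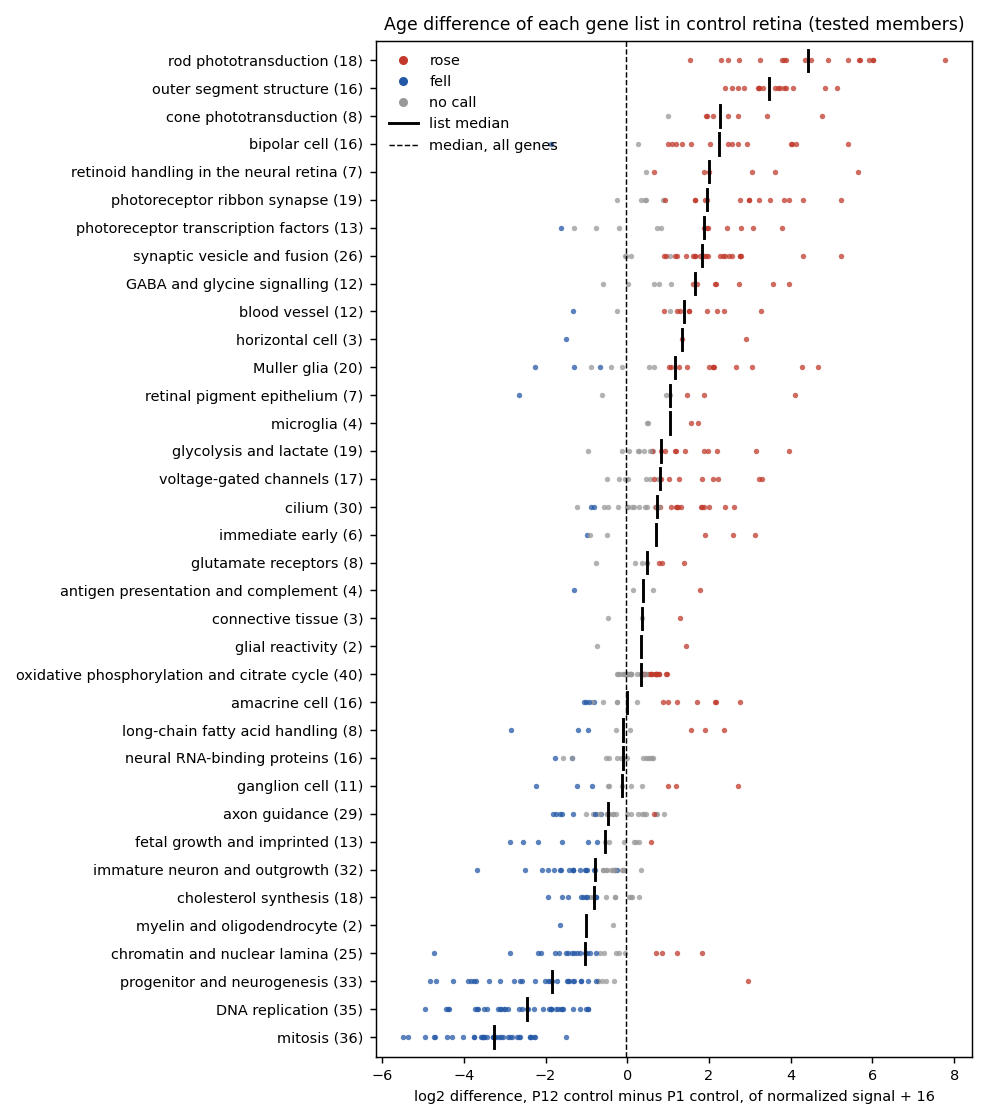
Log2 difference (P12 control minus P1 control, normalized signal + 16) of each tested member of each gene list, 1 point per gene, coloured by the limma call at an adjusted p under 0.05, with the number of tested members in brackets. The rod list (median 4.42) stands at the top and the mitosis list (median -3.27) at the bottom, on either side of the median of all genes tested (-0.03).

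All 18 tested members of the rod phototransduction list rose, beside 18.5% of all genes, with a median difference of 4.42. In rods, light-activated opsin switches on transducin, transducin switches on a phosphodiesterase, and the fall in cyclic GMP closes a cation channel. *Gnat1*, the rod transducin alpha subunit, gave signals of 8.03, 2.37 and 9.33 at P1 and 4116, 5405 and 5307 at P12, a difference of 7.78 ± 0.22 (adjusted p = 2.09e-06). The P1 values were near the floor of the arrays, and no P12 array came near them. Rod members under the signal limit at P1, like this gene, were tested through their P12 signals alone. This leans the count and median of the list upward. *Gngt1*, the gamma subunit, gave 24.3, 8.37 and 13.5 at P1 and 2912, 1912 and 1383 at P12 (difference 6.02 ± 0.32, adjusted p = 1.5e-05). *Gnb1*, a beta subunit that other tissues also use, was already bright at P1, with 712, 514 and 755 at P1 and 3284, 3717 and 2851 at P12 (difference 2.30 ± 0.18, adjusted p = 6.97e-05).

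The phosphodiesterase rose as a whole. *Pde6b*, a catalytic subunit, gave 63.5, 38.2 and 10.3 at P1 and 3249, 2759 and 2759 at P12 (difference 5.92 ± 0.37, adjusted p = 2.95e-05). *Pde6g*, the inhibitory subunit, gave 97.1, 63.5 and 58.2 at P1 and 4233, 5241 and 4151 at P12 (difference 5.70 ± 0.21, adjusted p = 5.5e-06). *Pde6a*, the partner catalytic subunit, differed by 4.35 ± 0.31 (adjusted p = 4.8e-05), and for none of these subunits did the ages overlap. *Cnga1* and *Cngb1*, the subunits of the cyclic GMP-gated channel, differed by 4.50 and 4.92. *Slc24a1*, the exchanger that removes calcium from the rod outer segment, gave 8.32, 3.77 and 2.6 at P1 and 1304, 697 and 1211 at P12 (difference 5.66 ± 0.28, adjusted p = 1.25e-05).

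Genes that regulate the light response and its recovery rose as well. *Rcvrn* (recoverin, a calcium sensor) gave 59.9, 37.8 and 44.7 at P1 and 4034, 3811 and 4309.9 at P12 (difference 6.02 ± 0.19, adjusted p = 3.08e-06). *Guca1b*, which encodes an activator of guanylate cyclase, gave 14.7, 1.48 and 14.6 at P1 and 812, 1459 and 993 at P12 (difference 5.40 ± 0.31, adjusted p = 2.21e-05), and its homologue *Guca1a* differed by 3.78. *Sag* (arrestin) was plainly present at P1, with 478, 370.5 and 379 at P1 and 6149.6, 6149.6 and 6455 at P12 (difference 3.89 ± 0.13, adjusted p = 3.4e-06). *Pdc* (phosducin, which binds transducin beta-gamma) was also present early, at 794, 881 and 161 at P1 and 4065, 2753 and 3302 at P12, and P1 array 3 stood well below the other P1 arrays. Members of the complex that speeds transducin shut-off, *Rgs9*, *Rgs9bp* and *Gnb5*, differed by 1.54, 3.84 and 3.26. *Rgs9* had the smallest difference of the tested rod members.

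**Figure D2:**
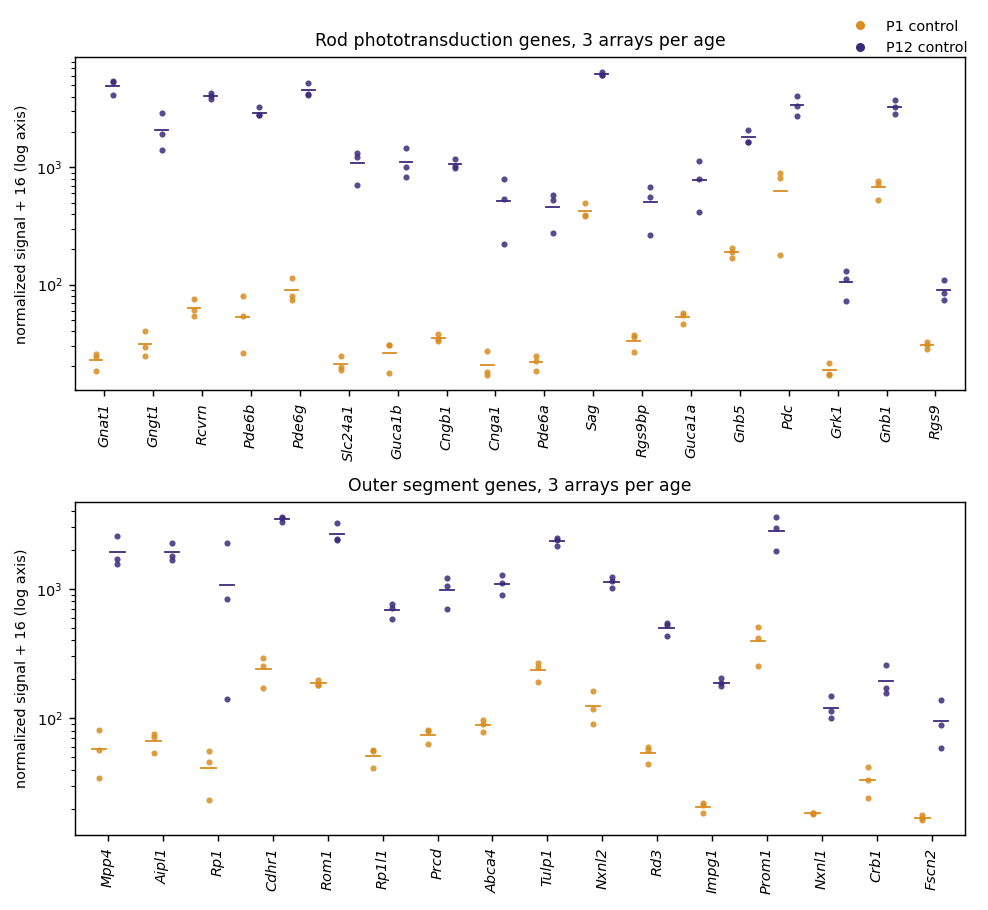
Normalized signal + 16 (log axis) of the tested rod phototransduction genes (top) and outer segment genes (bottom), 1 point per array, 3 arrays per age, with a bar at the mean. The P1 and P12 arrays do not overlap for any gene shown, and *Rp1* shows the widest spread at P12, with 126 on array 2 against 2228 on array 1.

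The promoter stretches below belong to genes picked as examples, each of which holds the core described next close to its start site. Those of *Slc24a1*, *Slc17a7* and *Opn1mw*, which also rose, hold no such core in the 250 bases before the start. The letters TAATC are the core bound by OTX2, CRX and related homeodomain proteins, and stand in capitals on either strand (GATTA is the same core on the opposite strand), with each stretch written 5′ to 3′ on the gene's strand and covering the 120 bases before the start annotated by RefSeq (GRCm38.p6).
Pde6b, chr5:108388253-108388372, plus strand: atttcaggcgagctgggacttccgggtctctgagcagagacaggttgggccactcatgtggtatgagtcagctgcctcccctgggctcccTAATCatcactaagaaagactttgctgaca
Gngt1, chr6:3993888-3994007, plus strand: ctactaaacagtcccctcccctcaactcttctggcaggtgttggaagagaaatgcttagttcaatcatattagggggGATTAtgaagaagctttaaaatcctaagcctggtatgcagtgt
Abca4, chr3:122044340-122044459, plus strand: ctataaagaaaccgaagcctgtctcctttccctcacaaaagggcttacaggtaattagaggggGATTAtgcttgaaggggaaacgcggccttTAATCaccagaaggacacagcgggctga
Opn1sw, chr6:29380514-29380633, minus strand: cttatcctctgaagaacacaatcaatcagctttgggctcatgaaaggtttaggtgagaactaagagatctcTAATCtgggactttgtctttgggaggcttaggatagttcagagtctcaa
Arr3, chrX:100605377-100605496, plus strand: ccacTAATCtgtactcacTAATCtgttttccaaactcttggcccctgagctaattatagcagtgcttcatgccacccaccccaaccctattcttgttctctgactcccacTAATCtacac
The 250 bases before the start were searched for members with a named probe set and a promoter in the RefSeq table. At least 1 such core was found in 9 of 13 rod members (69.2%), in 10 of 15 outer segment members (66.7%), in 3 of 6 cone members (50%) and in 5 of 16 ribbon synapse members (31.2%). The share was 22.3% of all 27025 genes in the table and 16.4% of the 7596 tested genes in it. In the mitosis list the share was 12.9%. A match of 5 letters is a description of the window, not a binding site.

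All 16 tested members of the outer segment list rose, with a median difference of 3.46 and no overlap of the ages. *Mpp4*, a scaffold of the photoreceptor terminal, gave 64.9, 40.8 and 18.4 at P1 and 2542, 1551 and 1679 at P12 (difference 5.13 ± 0.34, adjusted p = 3.75e-05). *Aipl1*, the chaperone of the phosphodiesterase, gave 55.3, 58.9 and 37.5 at P1 and 1666, 1786 and 2233 at P12 (difference 4.85 ± 0.22, adjusted p = 9.04e-06). *Cdhr1*, a photoreceptor cadherin found where new discs form, gave 278, 236 and 157 at P1 and 3483, 3295 and 3595 at P12 (difference 3.89 ± 0.21, adjusted p = 1.55e-05). *Rom1* (a disc rim protein), *Abca4* (the flippase that clears retinoid from discs, whose promoter is printed above) and *Prom1* (a protein of disc evaginations) differed by 3.83, 3.61 and 2.86. *Prom1* was already read at P1, with 488, 403 and 236 at P1 and 3564, 1934 and 2920.5 at P12. *Rp1*, whose P12 arrays are given above, read 39.4, 29.9 and 7.3 at P1 (difference 4.04 ± 0.88, adjusted p = 0.00922).

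The enzymes and carriers of retinoid, the light-absorbing group of opsins, rose in 6 of 7 tested cases (median 1.99). *Rdh12*, a photoreceptor retinol dehydrogenase, gave 17.3, 12.9 and 15 at P1 and 1309.6, 2116 and 1332 at P12 (difference 5.65 ± 0.24, adjusted p = 8.2e-06). *Rbp3*, the retinoid carrier that photoreceptors secrete into the space around the outer segments, gave 781, 520.3 and 297 at P1 and 3902, 4478 and 4206 at P12 (difference 3.04 ± 0.30, adjusted p = 0.00021). *Rlbp1*, the retinaldehyde-binding protein of Müller glia, was clearly read at both ages, with 333, 203 and 294 at P1 and 989, 1415 and 1021 at P12 (difference 1.99 ± 0.24, adjusted p = 0.000578).

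Cones are born before birth, and 7 of 8 tested members of the cone phototransduction list rose (median 2.28). *Opn1sw*, the short-wavelength cone opsin, was already read at P1, with 528, 352 and 207 at P1 and 1656, 1706 and 1224 at P12 (difference 2.11 ± 0.32, adjusted p = 0.00169). *Opn1mw*, the middle-wavelength opsin, was at the floor at P1, with 4.23, 2.6 and 1.53 at P1 and 393, 712 and 427 at P12 (difference 4.76 ± 0.26, adjusted p = 1.57e-05). The cone opsins thus both rose, from a measurable P1 signal in one case and from the floor in the other. *Arr3* (cone arrestin) gave 9.32, 7.55 and 1.53 at P1 and 203, 279.9 and 184 at P12 (difference 3.43 ± 0.24, adjusted p = 4.9e-05). *Pde6c* and *Pde6h*, the catalytic and inhibitory subunits of the cone phosphodiesterase, differed by 2.71 and 2.45, and *Gnat2*, the cone transducin, by 1.94. *Slc24a2*, the cone exchanger, had a difference of 0.99 ± 0.34 (adjusted p = 0.0523) and missed the threshold.

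Among the transcription factors of photoreceptors, 7 of 13 tested rose and 1 fell (median 1.87). *Otx2* itself, which sets the photoreceptor fate and is intact in these mice, gave 853, 798 and 597 at P1 and 889, 552 and 548 at P12, and the difference of -0.19 ± 0.24 (adjusted p = 0.561) was within the spread of the arrays. With the signals as deposited its difference was 1.47, and with spike scaling 0.45. *Crx*, a direct target of *Otx2*, gave 737, 591 and 363 at P1 and 1814, 2161 and 2125 at P12 (difference 1.87 ± 0.25, adjusted p = 0.000934). *Nrl*, the leucine zipper factor that specifies rods, gave 814, 568 and 554 at P1 and 4254, 4826 and 4359 at P12 (difference 2.78 ± 0.17, adjusted p = 2.38e-05). *Esrrb*, an orphan nuclear receptor of rods, gave 19, 8.1 and 11.9 at P1 and 274, 499.8 and 390.1 at P12 (difference 3.78 ± 0.27, adjusted p = 4.95e-05). *Crx* and *Nrl* were already over the signal limit on every P1 array, whereas *Esrrb* was under the signal limit there. *Samd11* and *Samd7*, photoreceptor proteins of the Polycomb machinery, differed by 3.07 and 2.45, *Mef2d* by 1.99 and *Pias3*, a SUMO ligase that acts with *Crx* and *Nrl*, by 1.95. *Prdm1*, which in newborn precursors holds back the bipolar fate, was the faller, with 704, 441 and 216 at P1 and 174, 93.1 and 111 at P12 (difference -1.62 ± 0.41, adjusted p = 0.0182). Its call was lost without P1 array 1 or P1 array 2, which left 0 fallers in the list. *Neurod1*, a basic helix-loop-helix factor of photoreceptors, and *Rora*, a nuclear receptor, had no call and were spread widely at P12: *Neurod1* gave 759.9, 727 and 479 at P1 and 3101, 434 and 892 at P12. *Rora* gave 106, 115 and 102 at P1 and 737, 61.5 and 162 at P12, so that P12 array 1 alone was far above P1 for both.

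The ribbon synapse of photoreceptors, which releases glutamate without pause in darkness, rose in 14 of 19 tested members (median 1.94). *Slc17a7*, the vesicular glutamate transporter of photoreceptors and bipolar cells, gave 10.3, 11.3 and 3.7 at P1 and 1076, 944 and 685 at P12 (difference 5.22 ± 0.25, adjusted p = 1.03e-05). *Cplx4*, a complexin of ribbon synapses, gave 17.6, 16.1 and 0.833 at P1 and 567, 399.5 and 559 at P12 (difference 4.30 ± 0.31, adjusted p = 5.01e-05). *Cabp4* and *Cacna1f*, a calcium-binding protein and the calcium channel of the terminal, differed by 3.82 and 3.21. *Lrit1*, a synaptic membrane protein of photoreceptors, differed by 3.96. Of the genes of the general active zone, *Bsn*, *Pclo* and *Ctbp2* had differences of 0.86, 0.34 and 0.44 and did not pass the test.

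The wider synaptic vesicle and fusion list rose in 22 of 26 tested members and fell in none (median 1.83). *Sv2b*, a vesicle glycoprotein, gave 239, 152 and 82.5 at P1 and 1539, 957 and 893 at P12 (difference 2.78 ± 0.37, adjusted p = 0.00093). *Syp* (synaptophysin), *Vamp2* (synaptobrevin) and *Syt1* (synaptotagmin) differed by 2.50, 2.26 and 1.65. *Snap25*, *Stx1a*, *Cplx2* and *Syn3* were the members without a call. *Snap25*, a fusion protein, gave 929, 899 and 590.3 at P1 and 3314, 705 and 1936 at P12 (difference 1.05 ± 0.49, adjusted p = 0.132), with P12 array 2 apart from the other P12 arrays.

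Cilium genes build the stalk that carries cargo into the outer segment. Of 30 tested, 13 rose and 2 fell, beside 18.5% and 16.7% of all genes (median 0.72). All 7 tested genes of the BBSome, the coat that moves membrane proteins through cilia (*Bbs1*, *Bbs2*, *Bbs4*, *Bbs5*, *Bbs7*, *Bbs9* and *Ttc8*), rose, by 0.70 to 2.39. None of the 8 tested *Ift* genes, which encode intraflagellar transport proteins, had a call, with differences of -0.48 to 0.75. These subsets were picked out after their values were seen and were not tested as groups. *Mak*, a kinase of the photoreceptor cilium, gave 163, 137 and 55.8 at P1 and 1053, 409 and 957 at P12 (difference 2.60 ± 0.45, adjusted p = 0.0033). The count of risers was 8 without P1 array 2 and 8 with median scaling, and the fallers (*Iqcb1*, -0.89; *Sdccag8*, -0.81) numbered 0 when any 1 P1 array was left out and 4 without P12 array 1.

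Cell division genes moved the opposite way. All 36 tested mitosis genes fell (median -3.27) and all 35 tested DNA replication genes fell (median -2.45), beside 16.7% of all genes. For every one of them the 3 P12 arrays lay below the 3 P1 arrays. *Top2a*, which untangles chromosomes, gave 1039, 1108 and 1013 at P1 and 7.4, 6.98 and 8.78 at P12 (difference -5.49 ± 0.19, adjusted p = 3.4e-06). *Mki67*, the standard marker of cycling cells, gave 678, 816 and 875 at P1 and 1.12, 1.3 and 8.37 at P12 (difference -5.37 ± 0.23, adjusted p = 8.15e-06). The P12 values of both were near the floor. Cell division genes under the signal limit at P12, like these, were tested through their P1 signals alone. This leans the counts and medians of the lists downward. *Cdc20*, an activator of the anaphase-promoting complex, gave 1028, 1310.2 and 1128 at P1 and 13.5, 28.3 and 24.8 at P12 (difference -4.95 ± 0.23, adjusted p = 9.67e-06). *Ube2c*, the ubiquitin-conjugating enzyme of that complex, gave 716, 732 and 692 at P1 and 11.1, 13.2 and 10.5 at P12 (difference -4.73 ± 0.19, adjusted p = 5.97e-06). *Birc5* (survivin) differed by -4.72, *Cdk1* by -4.41, *Plk1* by -2.35 and *Kif4*, the smallest of the list, by -1.50.

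In the replication list *Rrm2*, a subunit of the enzyme that makes deoxynucleotides, gave 808, 805 and 818 at P1 and 9.42, 14.7 and 8.52 at P12 (difference -4.95 ± 0.20, adjusted p = 5.97e-06). *Mcm5* and *Mcm6*, subunits of the replicative helicase, differed by -4.37 and -4.38, and *Uhrf1*, which carries DNA methylation through replication, by -4.44. *Pcna*, the sliding clamp, which also serves DNA repair, kept a signal at P12, with 2510.0, 2551 and 2156 at P1 and 643, 688 and 794 at P12 (difference -1.74 ± 0.14, adjusted p = 8.81e-05). With the signals as deposited 31 mitosis and 19 replication members still fell, and 2 replication members rose, *Rfc2*, a subunit of the clamp loader, and *Orc6*, a subunit of the origin recognition complex, both named here after their values were seen. *Pbk*, *Cdca8* and *Arhgap11a*, which are members of neither list, were among the 12 largest falls: *Pbk*, a mitotic kinase, differed by -5.02 ± 0.23 (adjusted p = 8.55e-06), *Cdca8*, a subunit of the chromosomal passenger complex, by -4.45 ± 0.23 (adjusted p = 1.5e-05), and *Arhgap11a*, a GTPase-activating protein, by -4.83 ± 0.23 (adjusted p = 9.65e-06).

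**Figure D3:**
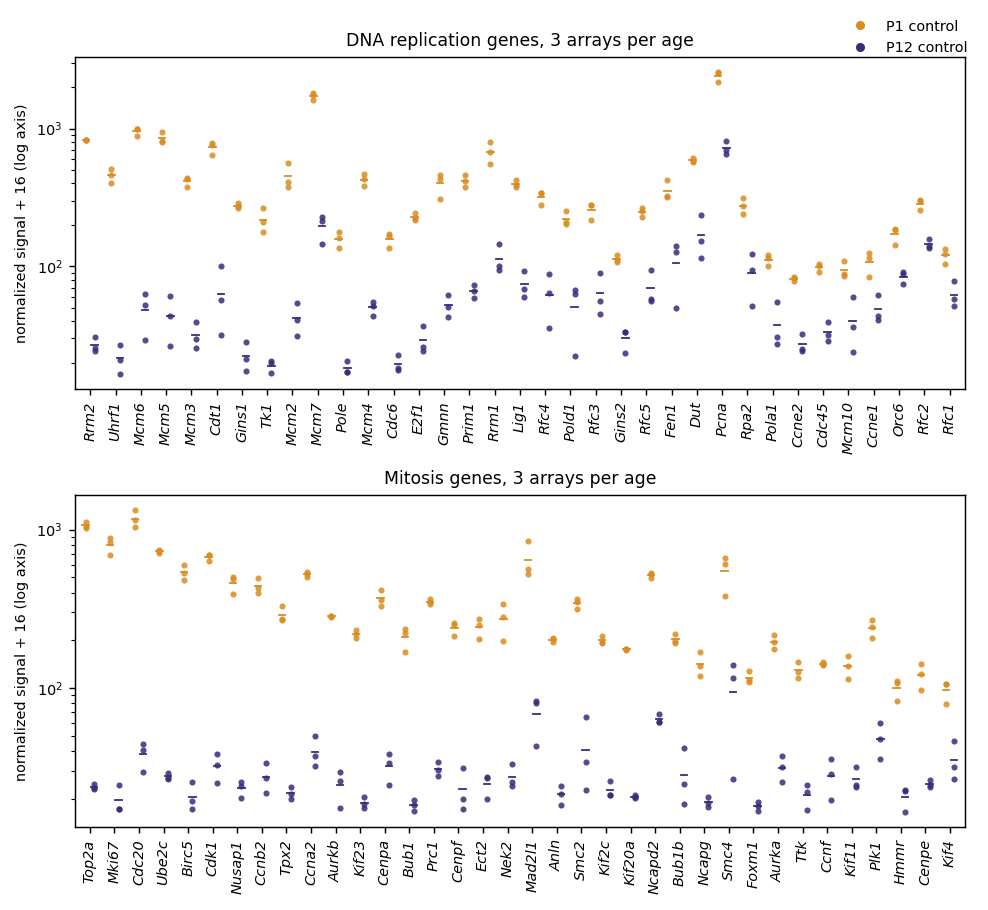
Normalized signal + 16 (log axis) of the tested DNA replication (top) and mitosis (bottom) genes, 1 point per array, 3 arrays per age, with a bar at the mean. Each gene has its 3 P12 arrays below its 3 P1 arrays, with group medians of -2.45 for replication and -3.27 for mitosis.

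The promoters of *Top2a*, *Ube2c* and *Cdc20*, large fallers chosen because each holds both of a pair of motifs, are printed as examples; that of *Birc5*, another of the 12 largest falls, holds neither. CCAAT, the core bound by NF-Y, and TTTGAA, known as the cell cycle homology region, stand in capitals on either strand (ATTGG and TTCAAA are the same letters on the opposite strand), in the 250 bases before the RefSeq start for *Top2a* and *Ube2c* and the 120 bases before it for *Cdc20* (GRCm38.p6).
Top2a, chr11:99024190-99024439, minus strand: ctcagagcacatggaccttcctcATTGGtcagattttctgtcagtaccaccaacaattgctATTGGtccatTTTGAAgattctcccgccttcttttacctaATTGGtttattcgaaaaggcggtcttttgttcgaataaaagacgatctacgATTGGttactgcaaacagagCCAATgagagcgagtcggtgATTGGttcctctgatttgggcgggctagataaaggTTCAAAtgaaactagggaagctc
Ube2c, chr2:164769679-164769928, plus strand: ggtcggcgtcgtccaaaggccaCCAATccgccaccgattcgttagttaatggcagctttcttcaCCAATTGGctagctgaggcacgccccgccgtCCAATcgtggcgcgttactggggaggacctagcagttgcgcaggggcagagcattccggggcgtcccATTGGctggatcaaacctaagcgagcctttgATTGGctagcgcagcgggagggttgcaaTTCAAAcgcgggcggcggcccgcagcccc
Cdc20, chr4:118437344-118437463, minus strand: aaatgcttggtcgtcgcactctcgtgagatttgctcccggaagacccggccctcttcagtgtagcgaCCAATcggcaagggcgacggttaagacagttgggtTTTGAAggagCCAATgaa
Matches numbered 6 of CCAAT and 2 of TTTGAA in *Top2a*, 6 and 1 in *Ube2c*, where adjoining matches share 2 bases, and 2 and 1 in *Cdc20*. In the 250 bases before the start, CCAAT was found in 25 of 31 mitosis promoters (80.6%), 18 of 30 replication promoters (60%) and 38.5% of rod promoters, against 37.5% of all genes and 41.4% of tested genes. TTTGAA was found in 14 of 31 mitosis promoters (45.2%), 3 of 30 replication promoters (10%) and 7.69% of rod promoters, against 18.3% of all genes and 12.4% of tested genes.

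Progenitor and neurogenesis genes fell alongside: 27 of 33 tested fell and 1 rose (median -1.84). *Fgf15*, a growth factor of retinal progenitors, gave 455, 679.9 and 447 at P1 and 1.22, 1.23 and 5.97 at P12 (difference -4.84 ± 0.24, adjusted p = 1.25e-05). *Ccnd1*, the D-type cyclin of progenitors, gave 3249, 2830.4 and 2605 at P1 and 107, 91.8 and 92.4 at P12 (difference -4.68 ± 0.17, adjusted p = 5.31e-06). *Hes5*, an effector of Notch that keeps progenitors undifferentiated, gave 799, 952 and 1162 at P1 and 23.8, 64.7 and 24.1 at P12 (difference -4.27 ± 0.32, adjusted p = 5.84e-05). The P12 arrays of all of them stood far below the P1 arrays. *Atoh7*, the basic helix-loop-helix factor needed for ganglion cells, gave 546, 394 and 284 at P1 and 11.3, 14.9 and 7.88 at P12 (difference -3.91 ± 0.27, adjusted p = 4.1e-05). *Foxn4* and *Ptf1a*, which act in amacrine and horizontal cell genesis, differed by -3.13 and -3.76, and *Notch1* and its ligand *Dll3* by -2.63 and -2.58. The riser was the Notch ligand *Jag1*, with 19.4, 28.1 and 21 at P1 and 183, 327 and 379 at P12 (difference 2.96 ± 0.29, adjusted p = 0.000193). Eye field genes that mature cells also use fell, with differences of -0.96 for *Rax*, -1.14 for *Six3* and -1.90 for *Lhx2*. With the signals as deposited 11 members fell and 8 rose.

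Genes of immature neurons and outgrowth fell in 19 of 32 tested cases and rose in none (median -0.80). *Cd24a*, a surface glycoprotein of immature neurons, gave 1979.7, 2062 and 2237 at P1 and 159, 136 and 151 at P12 (difference -3.68 ± 0.16, adjusted p = 8.2e-06). *Dcx* (doublecortin, a microtubule protein of migrating neurons) gave 208, 255 and 314 at P1 and 67.3, 9.07 and 37.1 at P12 (difference -2.50 ± 0.41, adjusted p = 0.00273). *Gap43* (a growth cone protein) gave 686, 602 and 922 at P1 and 126, 229.8 and 194 at P12 (difference -1.93 ± 0.27, adjusted p = 0.00117). *Tubb3*, a neuronal tubulin, differed by -2.10, and *Tuba1a* and *Tmsb10* by only -0.31 and -0.26. *Mapt*, *Map1b*, *Ncam1* and *L1cam* had no call, with differences of -0.59 to -0.34. The counts of this list depended on scale: with the signals as deposited 1 member fell and 18 rose. Its median minus that of all genes was -0.77 with quantile normalization and -0.80 as deposited.

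Of 29 tested axon guidance genes 7 fell, where 16.7% of all genes did, and 1 rose (median -0.47), whereas 22 rose and 0 fell as deposited and 9 rose and 2 fell with spike scaling. The list median minus that of all genes was -0.42 as deposited and -0.44 with spike scaling. *Robo2*, a Slit receptor, differed by -1.75 ± 0.32 (adjusted p = 0.0044), and *Efnb2*, an ephrin, by -1.59 ± 0.27 (adjusted p = 0.00334), though as deposited *Efnb2* stood at 0.077. The calls of the ephrin receptors were less firm: *Epha5* (-1.81) lost its call without any 1 of the P1 arrays or P12 array 3 (adjusted p = 0.054 to 0.0999) and *Epha3* (-1.65) without P1 array 3 (adjusted p = 0.0537). The list's fallers numbered 4 without P1 array 1 or 2, 3 without P1 array 3 and 10 without P12 array 2, where 5 members rose.

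Chromatin and nuclear lamina genes fell in 16 of 25 tested cases and rose in 4 (median -1.04), whereas as deposited 10 rose and 3 fell. As deposited the list median minus that of all genes was -0.91. *Hmgb2*, a chromatin protein of dividing cells, gave 1459, 1619.6 and 1285 at P1 and 20, 60 and 45.3 at P12 (difference -4.73 ± 0.29, adjusted p = 2.8e-05). *Ezh2*, the Polycomb methyltransferase, gave 556, 601 and 538 at P1 and 93, 46.9 and 56.7 at P12 (difference -2.87 ± 0.25, adjusted p = 0.000115). *Lbr*, the lamin B receptor, which in mouse rods goes down as their chromatin inverts, gave 704, 783 and 689 at P1 and 140.3, 135 and 168 at P12 (difference -2.18 ± 0.19, adjusted p = 0.000108). *Lmnb1*, a B-type lamin, differed by -1.50 ± 0.26 (adjusted p = 0.00366) and by 0.14 as deposited, while *Lmna*, an A-type lamin, stayed under the signal limit at both ages. The de novo DNA methyltransferases parted, *Dnmt3b* at -1.45 ± 0.24 (adjusted p = 0.00266) and *Dnmt3a* at 1.83 ± 0.20 (adjusted p = 0.000336). The risers numbered 2 without P1 array 1 or 2.

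The BAF chromatin remodelling complex exchanges subunits as neural progenitors become neurons, and its early members were lower at P12: *Actl6a* fell by 1.15 (adjusted p = 0.00817), *Phf10* fell by 1.04 (adjusted p = 0.00494) and *Ss18* fell by 0.77 (adjusted p = 0.02). As deposited all of them were instead higher at P12, by 0.55, 0.62 and 0.90. There *Phf10* (limma adjusted p = 0.0223) and *Ss18* (limma adjusted p = 0.00448) passed as risers. With spike scaling all of them lost their calls. Of the late members, *Dpf3* rose by 1.22 (adjusted p = 0.00378) and *Actl6b* by 0.85 (adjusted p = 0.0299), and *Ss18l1* differed by -0.07 ± 0.20 (adjusted p = 0.81), with no call. *Ss18* lost its call without P1 array 1, 2 or 3 (adjusted p = 0.0568 to 0.106) and *Actl6b* without P1 array 1 or 2 (adjusted p = 0.109 and 0.133). *Ptbp1*, the splicing repressor of progenitors, gave 1048, 973 and 911 at P1 and 239.8, 292 and 292 at P12 (difference -1.78 ± 0.17, adjusted p = 0.000204). *Ptbp2*, which follows it in young neurons, gave 1168, 1213 and 1002 at P1 and 788, 208 and 478 at P12 (difference -1.35 ± 0.41, adjusted p = 0.0342), and lost its call without P1 array 1, 2 or 3 or P12 array 3 (adjusted p = 0.0771 to 0.107). These were the 2 fallers of 16 tested neural RNA-binding proteins (median -0.12, with no riser), a share below the 16.7% of all genes that fell. Without P12 array 2, 6 fell and 3 rose. As deposited 12 members of that list rose and 0 fell, and with spike scaling 6 rose and 1 fell.

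Fetal growth and imprinted genes fell in 6 of 13 tested cases and rose in 1 (median -0.54), whereas as deposited 8 rose and 2 fell. The list median minus that of all genes was -0.51 with quantile normalization and -0.24 as deposited. *Igf2bp1* and *Igf2bp3*, fetal mRNA-binding proteins, differed by -2.56 ± 0.21 (adjusted p = 9.36e-05) and -2.19 ± 0.25 (adjusted p = 0.000496). *Plagl1*, an imprinted zinc finger factor, gave 2431, 2409.7 and 2489 at P1 and 599.7, 156 and 341 at P12 (difference -2.87 ± 0.40, adjusted p = 0.00116). *Grb10*, an imprinted adaptor of growth factor receptors, differed by -1.61 ± 0.17 (adjusted p = 0.00028) and by 0.074 as deposited. *Igf2*, the fetal insulin-like growth factor, was the riser, at 144, 135 and 142 at P1 and 215, 232 and 201 at P12 (difference 0.57 ± 0.19, adjusted p = 0.0478), a call lost without P1 array 1, 2 or 3 or P12 array 3 (adjusted p = 0.0813 to 0.183). *Igf1* had no call (-0.03) and was spread at P12, with 97.1, 109 and 123 at P1 and 239, 26 and 155 at P12.

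In the inner retina, 14 of 16 tested bipolar cell genes rose and 1 fell (median 2.24). Bipolar cells carry the photoreceptor signal to ganglion cells and are among the last neurons born. *Pcp2*, a G protein modulator of ON bipolar cells, gave 43.3, 30.3 and 18.8 at P1 and 1775, 2088 and 1868 at P12 (difference 5.39 ± 0.24, adjusted p = 8.26e-06). *Scgn* (secretagogin, a calcium-binding protein of cone bipolar cells) gave 4.67, 15.9 and 13.5 at P1 and 468, 561 and 347 at P12 (difference 4.12 ± 0.26, adjusted p = 3.16e-05). *Cabp5*, another calcium-binding protein, gave 17.1, 19.5 and 11.7 at P1 and 469.6, 487 and 545 at P12 (difference 4.01 ± 0.20, adjusted p = 1.32e-05). No P1 array came near a P12 array for these genes. Their P1 means were under the signal limit, so they were tested through their P12 signals alone. This leans the count and median of the list upward. *Gng13*, the G protein gamma subunit of the ON pathway, gave 11.7, 1.15 and 8.63 at P1 and 176, 556 and 441 at P12 (difference 4.02 ± 0.41, adjusted p = 0.000248). *Prkca*, the rod bipolar marker, gave 64.9, 65.4 and 51.3 at P1 and 752, 239 and 449.9 at P12 (difference 2.56 ± 0.38, adjusted p = 0.00155), and *Vsx1*, a homeobox factor of cone bipolar cells, differed by 2.71. The faller was *Irx5*, a homeobox factor of cone bipolar cells, with 255, 219 and 252 at P1 and 33.2, 81.4 and 55.8 at P12 (difference -1.88 ± 0.27, adjusted p = 0.00151).

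Müller glia, the radial support cells of the retina, had 12 of 20 tested genes rise and 3 fall (median 1.17). *Abca8a*, a lipid transporter, gave 5.7, 8.37 and 6.05 at P1 and 1035, 280.1 and 599 at P12 (difference 4.67 ± 0.41, adjusted p = 0.000127). *Clu* (clusterin, a secreted chaperone) gave 55.3, 55.2 and 68.7 at P1 and 1118, 1736 and 1566 at P12 (difference 4.28 ± 0.23, adjusted p = 1.5e-05). *Aqp4*, the water channel of the endfeet, gave 8.6, 2.37 and 1.85 at P1 and 149, 58.7 and 149 at P12 (difference 2.66 ± 0.34, adjusted p = 0.000826). P12 array 2 was the lowest P12 array for *Abca8a* and *Aqp4* and the highest for *Clu*. *Glul* (glutamine synthetase) was bright at both ages, with 1301, 1175 and 1207 at P1 and 2343, 2894 and 2542 at P12 (difference 1.06 ± 0.12, adjusted p = 0.00048), and *Kcnj10*, the potassium channel, differed by 1.27. The fallers *Sox2*, *Sox9* and *Dkk3* are shared with progenitors: *Sox2* gave 869, 873 and 870.3 at P1 and 108, 201 and 219.6 at P12 (difference -2.26 ± 0.26, adjusted p = 0.000506).

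**Figure D4:**
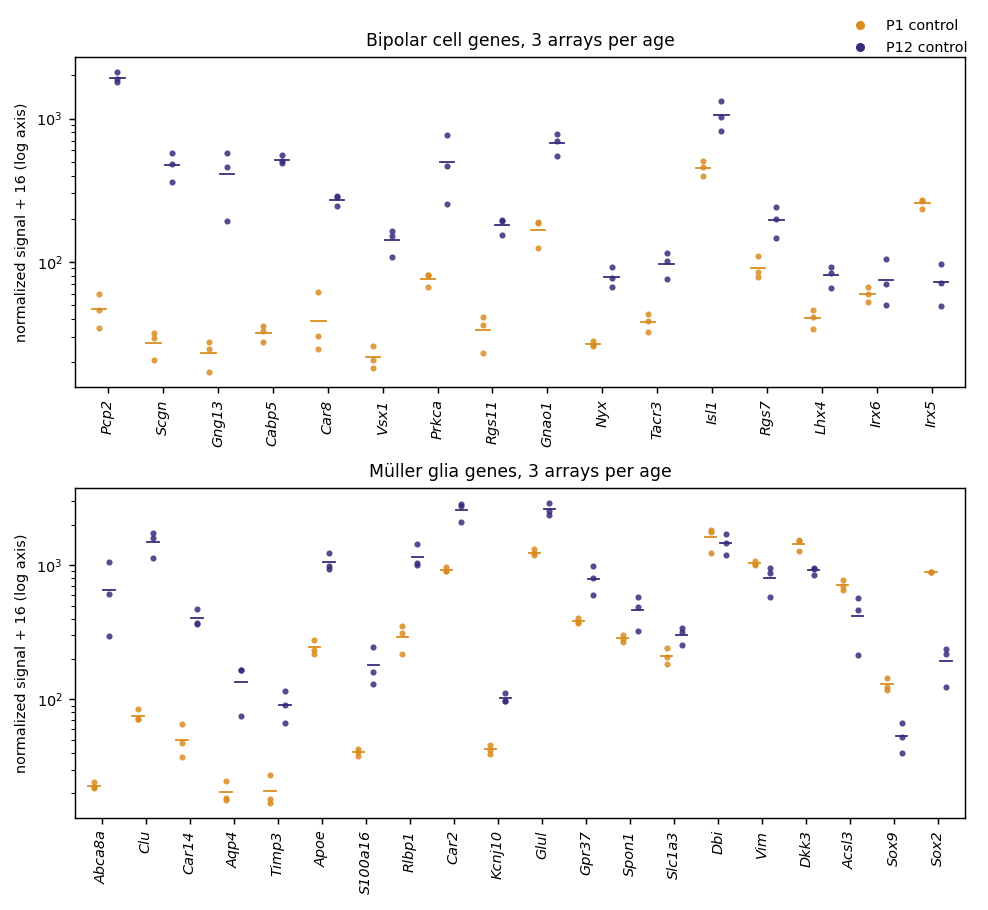
Normalized signal + 16 (log axis) of the tested bipolar cell (top) and Müller glia (bottom) genes, 1 point per array, 3 arrays per age, with a bar at the mean. Bipolar genes other than *Irx5* and *Irx6* lie higher at P12 on all 3 arrays, and among glial genes *Sox2*, *Sox9*, *Dkk3*, *Vim* and *Acsl3* lie lower on all 3, the last 2 with no call.

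Amacrine cell genes did not move together: 7 rose and 4 fell of 16 tested (median -0.01, and its place above or below that of all genes changed with the signal limit and with single arrays). Genes of transmitter handling and coupling were among the risers. *Gad1*, which makes GABA, gave 283, 277 and 184 at P1 and 1139, 1140.2 and 1096 at P12 (difference 2.13 ± 0.20, adjusted p = 0.000188). *Slc6a9*, the glycine transporter, gave 90.5, 53.1 and 64.3 at P1 and 433, 378 and 287 at P12 (difference 2.17 ± 0.25, adjusted p = 0.000503). *Gjd2* (connexin 36 of electrical synapses) differed by 2.75 ± 0.28 (adjusted p = 0.000258) and *Slc32a1*, the vesicular transporter of both transmitters, by 1.70 ± 0.31 (adjusted p = 0.00411). *Gad2*, the other enzyme that makes GABA, had no call (-0.60). The fallers were the transcription factors *Pax6* (-1.07), *Nr4a2* (-1.01), *Meis2* (-0.95) and *Tfap2a* (-0.82). The fallers numbered 1 without P1 array 1 or 3, 2 without P1 array 2 and 0 with the signals as deposited.

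Ganglion cell genes were as mixed (3 rose and 3 fell of 11 tested, beside 18.5% and 16.7% of all genes, median -0.12). *Pou4f1*, a POU factor of ganglion cells, gave 275, 279.9 and 479.6 at P1 and 52.3, 42.1 and 85.7 at P12 (difference -2.24 ± 0.31, adjusted p = 0.00108). *Nefh* and *Nefl*, neurofilament subunits of thick axons, differed by 2.70 ± 0.22 (adjusted p = 9.3e-05) and 0.99 ± 0.15 (adjusted p = 0.00201). *Rbpms*, an RNA-binding protein of ganglion cells, fell by 1.23 and *Thy1*, a surface glycoprotein, rose by 1.20, but *Rbpms* lost its call when any 1 P1 array was left out (adjusted p = 0.0529 to 0.0746) and *Thy1* without P1 array 1 or 2 or P12 array 3 (adjusted p = 0.0573 to 0.0689). Without P1 array 1 the list held 1 faller, and as deposited 9 members rose and 0 fell. Of 3 tested horizontal cell genes, *Calb1* (calbindin) gave 22.5, 23.6 and 18.4 at P1 and 298, 204 and 303 at P12 (difference 2.90 ± 0.22, adjusted p = 6.47e-05), *Prox1*, a homeobox factor shared with other cells, differed by 1.34 ± 0.19 (adjusted p = 0.0013) and *Onecut2*, a cut-domain factor, by -1.49 ± 0.29 (adjusted p = 0.00571), so that 2 rose and 1 fell (median 1.34).

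Receptors and channels were read less well, since many lay under the signal limit. Of 12 tested GABA and glycine genes 7 rose and 0 fell (median 1.65). *Gabrr1*, a subunit of the GABA receptor of bipolar terminals, gave 1.58, 15.1 and 1.85 at P1 and 199.8, 447 and 345 at P12 (difference 3.95 ± 0.35, adjusted p = 0.000119), and *Gabrr2* differed by 2.73 ± 0.29 (adjusted p = 0.000331). The chloride transporters, which set whether GABA excites or inhibits, parted: *Slc12a5* (KCC2, which lowers chloride) gave 306, 208 and 189.7 at P1 and 2920.5, 2839.9 and 2912 at P12 (difference 3.56 ± 0.19, adjusted p = 1.57e-05). *Slc12a2* (NKCC1, which raises it) gave 167, 185 and 144 at P1 and 282, 90.5 and 174 at P12, with no call (0.01), and its sign changed with median scaling (-0.21). Glutamate receptors rose in 3 of 8 tested cases and fell in none (median 0.48): *Grm2*, a metabotropic receptor, by 1.39 ± 0.28 (adjusted p = 0.00648), *Gria1*, an AMPA subunit, by 0.85 ± 0.19 (adjusted p = 0.0117) and *Grik5*, a kainate subunit, by 0.78 ± 0.24 (adjusted p = 0.0346). *Gria1* lost its call without P1 array 2 or 3 (adjusted p = 0.0628 and 0.0675) and *Grik5* when any 1 P1 array was left out (adjusted p = 0.0975 to 0.141), so that 1 call was left without P1 array 2 or 3, whereas 5 were made without P12 array 2.

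Voltage-gated channels rose in 9 of 17 tested cases and fell in none (median 0.79). *Kcnv2*, a potassium channel subunit of photoreceptors, gave 34.5, 32.6 and 20.4 at P1 and 454, 368 and 463 at P12 (difference 3.31 ± 0.22, adjusted p = 3.81e-05). *Scn2b*, a sodium channel beta subunit, differed by 2.22 ± 0.35 (adjusted p = 0.00212) and *Kcnma1*, the calcium-activated potassium channel, by 2.10 ± 0.30 (adjusted p = 0.00126). Neither *Scn3a*, the early sodium channel (-0.50, adjusted p = 0.283, and 0.76 as deposited), nor *Scn1a*, the late one (0.79, adjusted p = 0.058), passed the test. *Camk2b*, a kinase of synapses, rose by 1.50 ± 0.22 (adjusted p = 0.00149). The early and late NMDA receptor subunits *Grin2b* and *Grin2a*, the glycine receptor subunits *Glra2* and *Glra1*, *Gabra2* and *Camk2a* stayed under the signal limit.

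Among metabolic genes, glycolysis and lactate genes rose in 11 of 19 tested cases and fell in none (median 0.83), and 7 rose without P12 array 3 and 5 with median scaling. *Aldoc*, an aldolase, gave 82, 76.1 and 63.8 at P1 and 1221, 1538 and 1401 at P12 (difference 3.96 ± 0.19, adjusted p = 1.2e-05). *Eno2*, the neuronal enolase, gave 129, 83.7 and 100.4 at P1 and 947, 1224 and 955 at P12 (difference 3.14 ± 0.22, adjusted p = 4.53e-05). *Hk1*, the hexokinase of neurons, differed by 2.20 ± 0.19 (adjusted p = 0.000116) and *Slc16a1*, a lactate transporter, by 1.98 ± 0.23 (adjusted p = 0.000446). Oxidative phosphorylation and citrate cycle genes rose in 16 of 40 tested cases, by small amounts (median 0.33, the largest *Ndufb9*, a subunit of complex I, at 0.97). That count was 8 without P1 array 1 or 3, 9 without P1 array 2, 10 without P12 array 3, 21 without P12 array 1 and 0 with median scaling.

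Cholesterol synthesis genes fell in 9 of 18 tested cases and rose in none (median -0.81). *Idi1*, an isomerase of the pathway, gave 421, 469 and 541 at P1 and 167, 64.1 and 127 at P12 (difference -1.94 ± 0.31, adjusted p = 0.00249). *Hmgcs1*, an early enzyme, differed by -1.60 ± 0.37 (adjusted p = 0.0119), *Cyp51*, a sterol demethylase, by -1.14 ± 0.24 (adjusted p = 0.00746) and 0.48 as deposited, and *Insig1*, a sterol sensor, by -1.45 ± 0.45 (adjusted p = 0.0385), a call lost when any 1 P1 array or P12 array 3 was left out (adjusted p = 0.0842 to 0.106). Without P1 array 1, 2 or 3 the fallers numbered 5, 4 and 4, and they numbered 12 without P12 array 2. The list's counts turned with the scale, as the bulk of probe sets did: 11 rose and 0 fell as deposited, and 3 rose and 2 fell with spike scaling. Its median minus that of all genes stayed below 0, at -0.65 as deposited and -0.76 with spike scaling. Long-chain fatty acid genes parted, with 3 of 8 rising and 3 falling (median -0.12). *Elovl4*, which makes the very long chains of outer segment lipids, differed by 1.89 ± 0.19 (adjusted p = 0.000251), *Agpat3*, which builds docosahexaenoate into phospholipids, by 2.36 ± 0.21 (adjusted p = 0.000116) and *Acsl6*, an acyl-CoA synthetase, by 1.55 ± 0.20 (adjusted p = 0.000941). *Fabp7*, a fatty acid-binding protein of progenitors, gave 1492, 1289 and 304 at P1 and 160.4, 98 and 68.7 at P12 (difference -2.84 ± 0.57, adjusted p = 0.00654). The fallers numbered 1 without P1 array 1, and as deposited 6 members of this list rose and 0 fell.

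Of 6 tested immediate early genes, which activity or handling can induce within minutes, 3 rose and 1 fell (median 0.71). *Egr1* gave 33.2, 26.5 and 29.1 at P1 and 332, 325 and 519 at P12 (difference 3.13 ± 0.24, adjusted p = 6.43e-05), *Fos* differed by 2.59 ± 0.34 (adjusted p = 0.000886) and *Nr4a1* by 1.91 ± 0.36 (adjusted p = 0.00521). *Jun* differed by -0.99 ± 0.26 (adjusted p = 0.0193), with 0.71 as deposited, and lost its call without P1 array 2 or 3 (adjusted p = 0.0554 and 0.0939), which left 0 fallers, whereas 3 fell without P12 array 2.

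Cells that invade or adjoin the neural retina were followed by their markers. Blood vessel genes rose in 9 of 12 tested cases and fell in 1 (median 1.39). *Rgs5*, a pericyte gene, gave 12.9, 13.9 and 23.2 at P1 and 784, 107 and 292 at P12 (difference 3.27 ± 0.58, adjusted p = 0.00392), so that P12 array 1 was far above array 2. *Flt1*, a VEGF receptor, gave 0.717, 3.18 and 0.45 at P1 and 44.6, 61 and 49.9 at P12 (difference 1.95 ± 0.21, adjusted p = 0.000358). *Esam*, an endothelial adhesion protein, gave 17.1, 8.1 and 11.2 at P1 and 87.4, 189 and 121 at P12 (difference 2.36 ± 0.29, adjusted p = 0.000628). *Slco1c1*, a transporter of the blood-brain barrier, differed by 2.20 ± 0.28 (adjusted p = 0.000759), and *Dll4*, the Notch ligand of sprouting tip cells, fell, at -1.32 ± 0.19 (adjusted p = 0.00141). The mean signal over the 24 named members was 25.7 to 30.4 at P1 and 63.5 to 90.2 at P12, and the defining endothelial genes *Pecam1* and *Cdh5* stayed under the signal limit. *Rgs5*, *Esam*, *Slco1c1* and *Flt1* had P1 means of 16.6, 12.1, 3.48 and 1.45, so they were tested through their P12 signals alone. The P12 mean of *Flt1* was 51.8. Members admitted in this way lean the count of risers and the list median upward.

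Microglial genes were dim: 4 of 16 named members were tested, of which *Csf1r* (1.73 ± 0.31, adjusted p = 0.00384) and *Ctss* (1.55 ± 0.23, adjusted p = 0.00154) rose (median 1.03), while *Aif1*, *P2ry12* and *Tmem119* stayed under the limit. The mean signal over the 16 was 16.1 to 27.7 at P1 and 39.7 to 67.3 at P12. In the antigen presentation and complement list *H2-D1* rose (1.79) and *Serping1* fell (-1.32) of 4 tested (median 0.38), and of 2 tested glial reactivity genes *Stat3* rose (1.42, list median 0.33), with *Gfap* under the limit. The median of that list, taken minus that of all genes, was 0.36 and ran from 0.16 without P12 array 2 to 1.52 without P12 array 3, and 2 members rose without P1 array 3 or P12 array 3.

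Pigment epithelium, which can stay attached when a retina is dissected, was read by 7 tested genes, of which 3 rose and 1 fell (median 1.04). *Ttr*, also a gene of ciliary epithelium, gave 10.3, 38.6 and 24.3 at P1 and 319.7, 1051 and 809.8 at P12 (difference 4.11 ± 0.45, adjusted p = 0.000383), *Dct*, a melanin enzyme, differed by 1.87 ± 0.24 (adjusted p = 0.000817), and *Rgr*, an opsin that Müller glia also hold, by 1.45 ± 0.43 (adjusted p = 0.0327), a call lost when any 1 P1 array or P12 array 3 was left out (adjusted p = 0.0654 to 0.107). *Rpe65*, the defining enzyme, gave 1.58, 0.8 and 1.22 at P1 and 12.6, 42.6 and 27 at P12, under the limit. The faller was *Trpm3*, a cation channel, with 267, 192 and 316 at P1 and 72.7, 3.68 and 29.5 at P12 (difference -2.65 ± 0.50, adjusted p = 0.00486). The risers numbered 5 without P12 array 1. The mean signal over the 16 named members was 42.0 to 48.2 on the P1 arrays and 55.6 to 123 on the P12 arrays, *Ttr*, *Rgr* and *Rpe65* were highest on P12 array 2, and the part of this tissue in the other results was not tested.

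Lens and red blood cell genes had no tested member. The brightest lens gene, *Crybb3*, gave 49.1, 4.3 and 15.8 at P1 and 51.6, 35 and 28.7 at P12, and *Cryba1* gave 66.8, 1.8 and 2.1 at P1 and 41.3, 1.58 and 18 at P12, so that P1 array 1 was the highest P1 array for both. The mean signal over the 14 named lens members was 3.37 to 22.0 at P1 and 8.42 to 14.2 at P12, and that over the 6 named red blood cell members 2.41 to 3.66 and 1.97 to 9.89. Of connective tissue genes *Col1a2* rose (1.28 ± 0.24, adjusted p = 0.00521) among 3 tested (median 0.36), and 0 members rose without P12 array 1 or 2, and *Col1a1* read 1.28, 8.37 and 5.18 at P1 and 1.82, 8.6 and 2.53 at P12. Of 2 tested myelin genes *Cnp* fell (-1.64 ± 0.26, adjusted p = 0.00238; 0.068 as deposited), with a list median of -1.0 and *Mog* and *Mag* under the limit.

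Some of the largest rises belonged to no list. *Drd4*, a dopamine receptor of photoreceptors, gave 1.58, 0.8 and 0.45 at P1 and 1032, 1177 and 2018 at P12 (difference 6.33 ± 0.28, adjusted p = 8.2e-06), the second largest rise on the log2 scale with the offset of 16. *Reep6*, a membrane-shaping protein of rods, gave 19.4, 22.9 and 18.8 at P1 and 1122, 2199 and 2242 at P12 (difference 5.62 ± 0.29, adjusted p = 1.48e-05). *Vtn* (vitronectin, a matrix glycoprotein) gave 14.1, 12.1 and 15.2 at P1 and 913, 1292 and 1179.8 at P12 (difference 5.25 ± 0.21, adjusted p = 6.53e-06). The P1 arrays read all 3 of these genes near the floor.

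The same age difference was then taken in the Otx2 CKO retinas, to see which changes of the control retina were larger or smaller where *Otx2* had been deleted. All 12 arrays were normalized together, and the difference of the age differences was tested in 1 limma model. It was above 0 for 354 of 9984 genes (3.55%) and below 0 for 150 (1.50%). Of the 1719 genes that rose in control, 922 also rose in Otx2 CKO and 24 fell, and the control rise was the larger for 325 and the smaller for 9. Of the 1547 that fell in control, 918 also fell in Otx2 CKO and 8 rose, and the control fall was the larger for 89 and the smaller for 1. Both sets were picked by calls on the control arrays that also enter the difference. That alone leans the difference toward a larger control change, so these splits are not read as a result.

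Photoreceptor genes were among the 354 genes above 0: 16 of 18 rod, 15 of 16 outer segment, 8 of 19 ribbon synapse, 6 of 13 transcription factor and 4 of 8 cone members passed, all above 0. The median rod gene differed by age by 4.50 in control and by 1.15 in Otx2 CKO. *Gnat1* differed by 7.76 in control and 2.78 in Otx2 CKO (difference 4.97 ± 0.43, adjusted p = 4.9e-05). *Slc17a7* differed by 5.27 and 0.46 (difference 4.81 ± 0.31, adjusted p = 1.88e-05). *Otx2*, the deleted gene, had mean signals of 794 at P1 and 706 at P12 in control and of 380.2 and 92.5 in Otx2 CKO, and differed by -0.19 and -1.89 (difference 1.70 ± 0.33, adjusted p = 0.0106). Bipolar genes passed for 9 of 16 members, all above 0: *Isl1*, a homeobox factor of ON bipolar, amacrine and ganglion cells, differed by 1.16 in control and -2.03 in Otx2 CKO (difference 3.19 ± 0.35, adjusted p = 0.00018). Glycolysis genes passed above 0 for 4 of 19, cilium genes for 6 of 31.

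The loss of the cell cycle was met in both genotypes. All 36 mitosis genes and 34 of 35 replication genes fell in Otx2 CKO as well, with list medians of -2.96 and -2.18 beside -3.36 and -2.45 in control, and 0 mitosis and 2 replication genes differed between the genotypes, both below 0. Müller glia genes rose in 15 of 20 cases in Otx2 CKO and differed between the genotypes for 2, among them *Apoe*, a lipid carrier, at 2.06 in control and 4.20 in Otx2 CKO (adjusted p = 0.000161). The synaptic vesicle list had 22 risers in each genotype, of 26 tested in control and 27 in the joint model, and 2 members differed, both above 0. The share of all genes that rose or fell within Otx2 CKO is not given here. The list counts within Otx2 CKO are therefore not read as larger or smaller than that share.

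Differences below 0 were fewer. Some of the 150 genes below 0 were immature neuron (9 of 35) and axon guidance genes (4 of 31). Others were progenitor (4 of 35, with 1 above 0) and microglial genes (3 of 12). Most of the 150 belonged to none of these lists. The microglial list had 4 tested members in the control fit and 12 in the joint model, and all 12 rose in Otx2 CKO. Members that reach the signal limit only through the Otx2 CKO arrays lean the count below 0 upward. No conclusion about the microglial list is therefore drawn from the 3 of 12 or from its 12 risers. *Cd24a* differed by -3.62 in control and -0.82 in Otx2 CKO (difference -2.80 ± 0.18, adjusted p = 1.88e-05). *Sox11*, a neurogenic HMG-box factor, differed by -3.80 and -0.61 (difference -3.19 ± 0.38, adjusted p = 0.000326). Both fell in control by more than in Otx2 CKO. The count of probe sets below 0 was 238 and was 111 without control array 3 of P1, whereas the count above 0 stayed between 393 and 655 without any 1 array. Leaving out 1 array also took the count below 0 to 125 (P1 control 1, P1 Otx2 CKO 2 or P12 Otx2 CKO 3), 117 (P1 control 2), 127 (P1 Otx2 CKO 3) and 142 (P12 control 3).

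**Figure D5:**
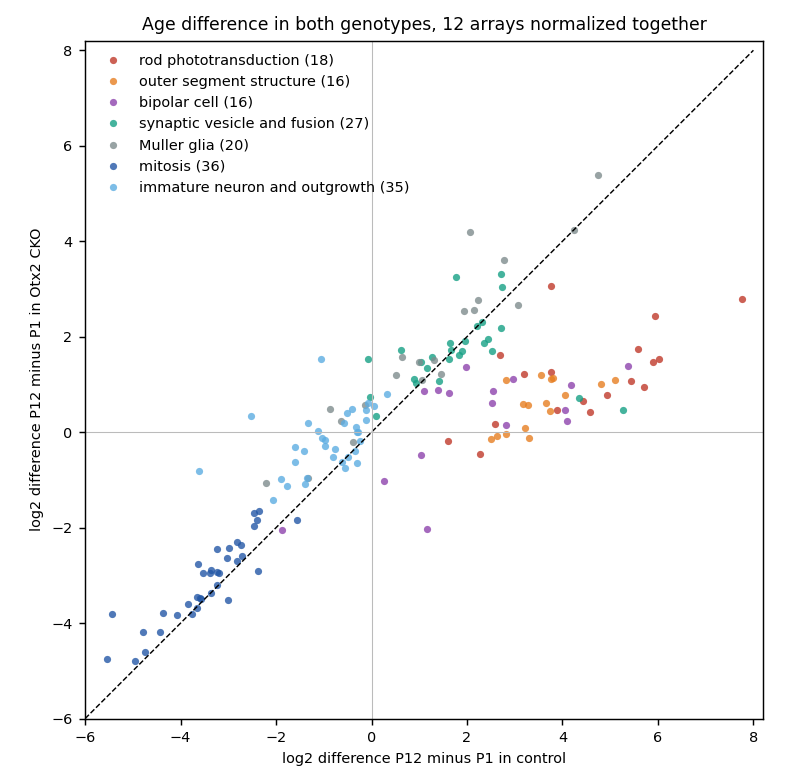
Age difference (log2, P12 minus P1, normalized signal + 16) in control (x axis) against that in Otx2 CKO (y axis) for the tested members of 7 gene lists, 1 point per gene, 3 arrays per age and genotype, with a dashed line of equal change. Rod, outer segment and bipolar genes mostly lie below the line on the right, though *Irx5* of the bipolar list fell in control. Mitosis genes lie near the line at the lower left, and immature neuron genes lie mostly above it.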

How the data were processed

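RNA of control retinas at P1 and P12 (3 arrays each) and of Otx2 CKO retinas at the same ages (3 arrays each) was labelled by in vitro transcription and read on 1-colour Affymetrix arrays. The authors computed linear probe set signal intensities with GCOS 1.4 and deposited those intensities, 1 value per probe set; the scaling target is not given in the sources used here. Of 45101 probe sets, AFFX controls were left out and the other 45037 were kept, of which 34945 had 1 gene symbol in the platform annotation, 932 several and 9160 none; 34741 of the named ones were matched to RefSeq by Entrez ID.

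The 6 control arrays were quantile normalized, 16 was added, and log2 values of probe sets with a mean signal of at least 50 at either age were fitted with limma 3.58.1 in R 4.3.3 (lmFit, eBayes with trend); the genotype difference was a contrast in 1 such model of all 12 arrays, normalized together. P-values were adjusted by the Benjamini-Hochberg method over all probe sets tested, with 0.05 as threshold. Each gene was read by its probe set with the highest mean signal, and no named gene had other tested probe sets called the opposite way. ± is the standard error of the fit. The procedure was tested on simulated data. No array was dropped and none duplicated another. Replicate numbers did not pair the P1 with the P12 control arrays, and pairing between the genotypes was not tested. Since no source says that replicates were separate animals, p-values measure the spread between these arrays, which may be technical, and 3 arrays per group limit the precision.

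Genes named are the 12 largest rises and falls, up to 4 per list with the largest difference among called genes whose ages do not overlap, early and late pairs, *Otx2*, and the 6 largest genotype differences each way; further members were named by role after their values were seen. The comparison and the lists were chosen with earlier results of these data known. Promoters came from RefSeq (27025 genes, GRCm38.p6) and were searched on both strands with Python 3.11.15. Alternatives changed the scaling, the offset, the signal limit, the model and the arrays. Genes without a named probe set are not reported here.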

Additional observations from a re-analysis of the deposited data

Results flagged for a closer look

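The age difference in control and that in Otx2 CKO retinas were tested against each other in the limma model of all 12 arrays, and the 6 largest values in each direction among genes called in both tests are given here as control minus Otx2 CKO on the log2 scale. Picking them partly by their control calls, from arrays that also enter the difference, leans these values outward. *Gnat1* stood at 4.97, *Slc17a7* at 4.81, *Slc24a1* at 4.77, *Rdh12* at 4.60 and *Gngt1* at 4.48, all genes of photoreceptor function that rose in control. *Drd4*, which belonged to no list, stood at 4.90. In the other direction, *Sox11* stood at -3.19, *Pdzrn3*, which encodes a ubiquitin ligase, at -3.04, *Nfib*, a nuclear factor I gene of late progenitors and glia, at -3.01, *Cd24a* at -2.80, *Mfap4*, a microfibril protein, at -2.75 and *C2cd4b* at -2.74. *Nfib* fell in control (-1.28) and rose in Otx2 CKO (1.72), but its control call was lost without P1 array 1, 2 or 3 or P12 array 3 (adjusted p = 0.058 to 0.0921). Groups of 3 arrays are too small for a test of single outlying arrays.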

How the results depend on the processing

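Directions rested on the scaling, and the cause of the brighter P12 signals was not tested. With the signals as deposited the median probe set differed by 1.45, 15520 probe sets rose, 276 fell, and 3 lists had more fallers than risers; with median scaling (median -0.24) 1693 rose, and with spike scaling (median 0.61) 7319 rose and 936 fell. A test against a log2 difference of 1 (treat) called 484 up and 441 down. Without 1 array, 1769 to 3594 probe sets rose and 1645 to 3849 fell, and 19 to 25 lists had more risers. The genotype difference was above 0 for 386 and below for 663 probe sets as deposited, for 292 and 102 with median scaling, and without 1 array for 393 to 655 and 111 to 351. Replicate numbers did not pair the P1 control arrays with the P12 control arrays (same-number correlations -0.03, -0.05 and -0.03). With the replicate block 2465 probe sets rose and 2571 fell. In the genotype difference the block gave 850 probe sets above 0 and 597 below, beside 580 and 238 without it. Pairing of control with Otx2 CKO arrays by replicate number was not tested. Signs turned, as deposited, for *Rbpms* (0.38), *Col6a1* (1.05), *Cnp* (0.068), *Efnb2* (0.077), *Grb10* (0.074), *Ptbp2* (0.26), *Insig1* (0.16), *Cyp51* (0.48), *Jun* (0.71), *Scn3a* (0.76), *Lmnb1* (0.14), *Igf1* (1.31), *Actl6a* (0.55), *Ss18* (0.90), *Ss18l1* (1.4), *Phf10* (0.62), *Otx2* (1.47) and *Nfib* (0.14), and for the list medians, taken minus that of all genes, of fatty acid (0.025) and immediate early genes (-0.033); with spike scaling for *Col6a1* (0.15), *Scn3a* (0.023), *Igf1* (0.47), *Ss18l1* (0.54), *Otx2* (0.45) and the amacrine median (-0.023). *Slc12a2* turned with median (-0.21) and trimmed mean scaling (-0.069) and with an offset of 1 (-0.0010), and *Igf1* with an offset of 50 (0.051). A signal limit of 100 turned the amacrine (-0.18), ganglion (0.16) and connective tissue (-0.40) medians, and a limit on the mean of 6 arrays the amacrine (-0.21) and connective tissue (-0.0092) medians. Without 1 array, values that changed sign ranged from -0.35 to 0.38 for *Slc12a2*, -0.57 to 0.69 for *Igf1* and -0.13 to 0.013 for *Ss18l1*, and medians from -0.14 to 0.11 for amacrine, -0.13 to 0.66 for connective tissue, -0.23 to 0.064 for ganglion, -0.19 to 0.019 for neural RNA-binding and -0.25 to 0.0086 for fatty acid genes. Over the genes that the naming rule gave and these alternatives 2868 values kept direction and call, 145 lost the call, 5 gained one and 34 turned. Dim genes, many of them receptors and markers of rare cells, were limited by signal over background.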
